A study of Bos taurus with 20 samples.

Results

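Mitochondrial respiratory chain genes were followed in mammary tissue of cows with Escherichia coli mastitis. The genes were found by their symbols: NDUFA, NDUFB, NDUFC, NDUFS and NDUFV names for complex I, SDH A to D names for complex II, UQCR for complex III, COX4 to COX8 for complex IV and ATP5 for complex V. This gave 115 probe sets for 88 genes, of 9155 genes that the Affymetrix GeneChip Bovine Genome Array names by a single symbol. Among them, 101 probe sets for 79 genes stand for subunits, 13 probe sets for 8 genes stand for assembly factors that the same names catch (NDUFAF and SDHAF genes), and 1 probe set stands for ATP5IF1, the inhibitor of ATP synthase. The subunit genes numbered 38 for complex I, 4 for complex II, 8 for complex III, 13 for complex IV and 16 for complex V. No mitochondrially encoded subunit was found on the array by its symbol, so the genes described here are all nuclear.

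The respiratory chain lies in the inner mitochondrial membrane. Complex I takes electrons from NADH and complex II, succinate dehydrogenase, takes them from succinate, a step it shares with the Krebs cycle. Complex III passes them on to cytochrome c, complex IV hands them to oxygen, and complex V makes ATP from the proton gradient built on the way. The secretory epithelium of the lactating udder is rich in mitochondria, while neutrophils, which enter the gland during mastitis, live largely on glycolysis.

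The 20 arrays came from the 4 mammary glands of each of 5 Holstein Friesian cows in mid lactation, with 1 array per gland. In each cow the right front gland was neither challenged nor treated (NC), the left front gland received 100 cfu of E. coli and no treatment (CNT), and the rear glands received the same challenge and intramammary treatment. CF glands were given 300 mg of cefapirin, a cephalosporin antibiotic, and CFPD glands 300 mg of cefapirin with 20 mg of prednisolone, a glucocorticoid. Animals cow8609 and cow8620 were sampled 24 h post challenge after infusions at 4 and 12 h, and cow8452, cow8507 and cow8605 at 48 h, after further infusions at 24 and 36 h, so that n was 2 per group at 24 h and 3 at 48 h. The labels place the tissue in the cisternal region, whereas the description of the methods speaks of parenchyma. NC was always the right front gland and CNT always the left front, so that challenge and side cannot be told apart. CF and CFPD were always rear glands. Treatment and rear position therefore cannot be told apart in any comparison of treated glands with CNT or NC. CF was the left rear gland in 3 cows and the right rear in cow8609 and cow8452. The CF and CFPD labels of those 2 cows are in doubt. In an earlier analysis of these arrays, not repeated here, the study's listed fold changes lay closer to the deposited values once the labels were exchanged. The deposited labels were kept, every CF and CFPD value of the 2 cows carries this doubt, and counts of calls in the treated glands are also given with the labels exchanged.

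Values are log2 RMA signals, and array medians lay between 7.12 and 7.31. The mean over 14 secretory epithelium genes, the milk proteins and lipid genes of the mammary cell, was 13.80 or more on every array. In CNT glands this mean ran from 13.80 to 13.98 at 24 h and from 13.96 to 14.33 at 48 h, against 14.45 to 14.57 and 14.59 to 14.86 in NC. The mean over 11 neutrophil markers was 8.91 to 10.29 in CNT at 24 h and 8.79 to 9.52 at 48 h, and 6.82 to 7.44 in the NC glands of both times. In CF and CFPD glands the neutrophil mean was 7.06 to 7.46, and 2 of the 11 genes lay below the array median on every array by all their probe sets. These are tissue samples, in which fewer cells of a type and less RNA per cell cannot be told apart, and the part of the cell mixture in the results below was not tested.

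Of the 115 probe sets, 95 exceeded the array median on enough arrays to be tested at 24 h and 97 at 48 h, while 18 were tested at neither time. The 3 genes with no tested probe set at either time were SDHAF3, an assembly factor of complex II, and COX6A2 and COX6B2, isoforms known from muscle and testis. COX6A2 measured 5.57 to 6.49 over the 20 glands, below every array median. By their tested probe sets, ATP5F1A, the alpha subunit of the ATP synthase head, measured 13.09 to 13.68. COX4I1, a structural subunit of complex IV, measured 12.35 to 13.11, and SDHB, the iron-sulphur subunit of complex II, 11.69 to 12.33.

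Within groups the levels lay close. The median residual SD of a member around its group mean was 0.151 at 24 h and 0.225 at 48 h, against 0.211 and 0.269 for all tested probe sets, and 0.188 and 0.253 for those at least as bright as the lower quartile of the members. Over the 5 NC glands, the median SD of 84 genes measured at both times was 0.218, against 0.259 for 6565 genes of the array. The NC gland of cow8605 stood above the others, with a median deviation of the 84 genes of 0.22, and those of cow8507 and cow8609 stood below, at -0.11 and -0.12. Over the whole array, glands of one cow deviated from their group means together, so tests are also given with the cow as a block where that alters a call.

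**Figure D1:**
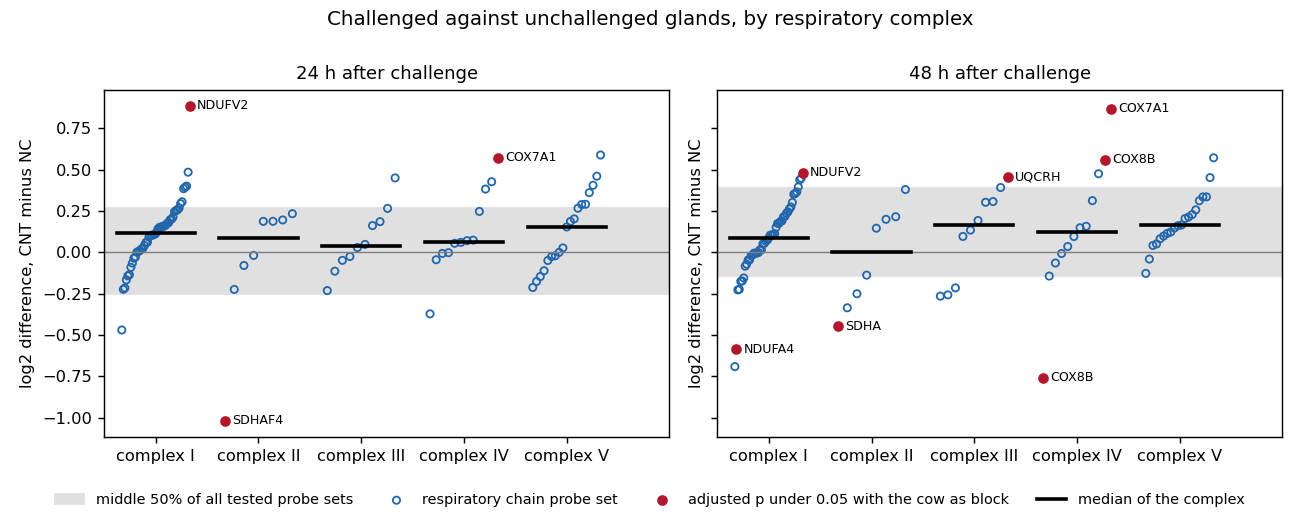
Log2 difference between challenged untreated (CNT) and unchallenged (NC) glands for each tested respiratory chain probe set, by complex as its symbol gives it, at 24 h (n = 2 cows) and 48 h (n = 3 cows). Grey marks the middle 50% of all tested probe sets, black bars are medians of a complex, and red points (3 at 24 h, 7 at 48 h) have an adjusted p under 0.05 in the fit that holds the cow as a block.

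The first comparison asked what the infection itself did, CNT against NC. As a group, respiratory chain transcripts lay near the rest of the array, with a narrower spread. The median log2 difference of the members was 0.10 at 24 h and 0.11 at 48 h, and the middle 50% of them lay between -0.03 and 0.24 at 24 h and between -0.02 and 0.26 at 48 h. Over all tested probe sets the median was -0.01 and 0.13, and the middle 50% spanned -0.25 to 0.27 and -0.14 to 0.39. A difference of 0.5 or more in size was seen for 4 of 95 members at 24 h, where 23.6% of all probe sets reached it, and for 6 of 97 at 48 h, where 25.4% did. Differences above 0 were found for 65 of 95 members at 24 h and 67 of 97 at 48 h, against 49.2% and 62.6% of all probe sets. These counts moved with the scaling. After quantile normalization of the arrays 51 of 95 members were above 0 at 24 h, as the median of all probe sets went from -0.01 to -0.06. At 48 h it was 40 of 97, with a median of the members of -0.06, as the median of all probe sets went from 0.13 to -0.04.

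No member passed an adjusted p of 0.05 (limma, Benjamini-Hochberg over all probe sets) in CNT against NC, at 24 h or at 48 h. Of all probe sets, 2.81% passed at 24 h and 4.4% at 48 h. At an unadjusted p under 0.05 the members numbered 8 of 95 at 24 h and 14 of 97 at 48 h, where all probe sets gave 20.7% and 24.3%. With the cow as a block, 3 of 95 members passed at 24 h (background 15.4%) and 7 of 97 at 48 h (background 15.8%). Members higher in the CNT gland of every cow numbered 44 at 24 h and 27 at 48 h, against 35% and 33.8% of all probe sets, and members lower in every cow 13 and 7, against 35.1% and 16%. Members whose CNT glands all lay above all NC glands numbered 29 at 24 h and 17 at 48 h, or 30.5% and 17.5% of those tested, with 26.3% and 21.6% over all probe sets. Members with all CNT glands below numbered 10 and 5, or 10.5% and 5.15%, against 26% and 9.07%.

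By complex the medians were close. At 24 h the median difference was 0.12 for complex I, 0.08 for complex II, 0.04 for complex III, 0.07 for complex IV and 0.15 for complex V. At 48 h it was 0.09, 0.00, 0.16, 0.12 and 0.16 in the same order. These medians run over all tested probe sets of a complex, with the assembly factors and the inhibitor included. In complex II, 4 of the 8 tested probe sets stand for assembly factors. Its subunits SDHA, SDHB, SDHC and SDHD had 0.19, -0.22, 0.19 and 0.20 at 24 h, and -0.45, 0.22, 0.15 and 0.20 at 48 h. Complex V was the most uniform in sign of the mean difference at 48 h, with 18 of 20 tested probe sets above 0, against 62.6% of all probe sets. Of these 20, 7 were higher in every cow, against 33.8%. Subunits had a median of 0.12 at 24 h and 0.11 at 48 h, and assembly factors of 0.05 and -0.02.

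**Figure D2:**
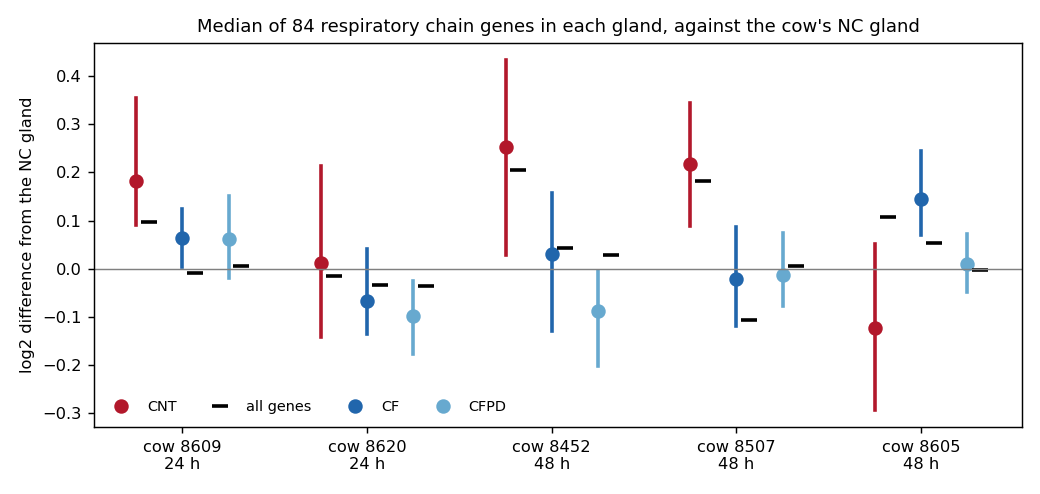
Median over 84 respiratory chain genes of the log2 difference between each challenged gland and the NC gland of the same cow (circles, with lines over the middle 50% of the genes), with black dashes for the median over all 6565 genes. The CNT medians run from -0.12 in cow8605 to 0.25 in cow8452.

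The cows did not move together. Over the 84 genes, the median of CNT minus NC was 0.18 in cow8609 and 0.01 in cow8620 at 24 h. At 48 h it was 0.25 in cow8452, 0.22 in cow8507 and -0.12 in cow8605, while the median over all genes was 0.21, 0.18 and 0.11. In cow8605, 26 of the 84 genes were above the NC gland, and in cow8507 it was 74. Over subunit genes alone, the medians of complexes I, IV and V in cow8605 were -0.13, -0.19 and -0.14, and in cow8452 they were 0.23, 0.36 and 0.36. The animal cow8605 is the one whose NC gland was highest of the 5, and the part of that in its difference was not tested. Without cow8605 the median of the members at 48 h was 0.25 in place of 0.11, and without cow8452 it was 0.05. At 24 h it was 0.18 without cow8620 and 0.00 without cow8609.

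NDUFV2 was higher in the challenged gland of every cow. It encodes an iron-sulphur subunit of the part of complex I that takes up electrons from NADH. At 24 h its log2 value was 11.45 and 11.80 in the NC glands and 12.40 and 12.63 in CNT. Values at 48 h were 11.52, 11.39 and 11.62 in NC and 11.84, 11.96 and 12.17 in CNT. Both CNT glands at 24 h and all 3 at 48 h lay above every NC gland of their time point. The log2 difference was 0.89 (SE 0.18) at 24 h and 0.48 (SE 0.15) at 48 h, with adjusted p of 0.0576 and 0.0936, and of 0.00832 and 0.0298 with the cow as a block.

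Over both time points in 1 fit of the 20 arrays, added after these values were seen, NDUFV2 rose by 0.68 (SE 0.12, adjusted p = 0.00168, 0.000157 with the cow as a block). It passed when any one of the 5 cows was left out, at adjusted p between 0.00857 and 0.0378 without the block, although leaving out cow8609 or cow8620 leaves 1 gland per group at 24 h, which is then assumed to vary like the others. In that fit 1 of 97 members was called higher and 3 lower, against 9.05% and 4.26% of all probe sets. The 3 lower ones were SDHAF4, NDUFA4L2 and the _at probe set of COX8B, and without cow8452, cow8609 or cow8620 NDUFV2 was the 1 member called. In CNT glands NDUFA4L2 and this COX8B probe set lay near or below the array medians. With the cow as a block 7 members were called higher and 4 lower, against 17.3% and 10.5%. These 11 became 6 without cow8452, 8 without cow8507 and 19 without cow8605. The share of all probe sets called was not counted for the fits without a cow, so these counts cannot be set against it.

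**Figure D3:**
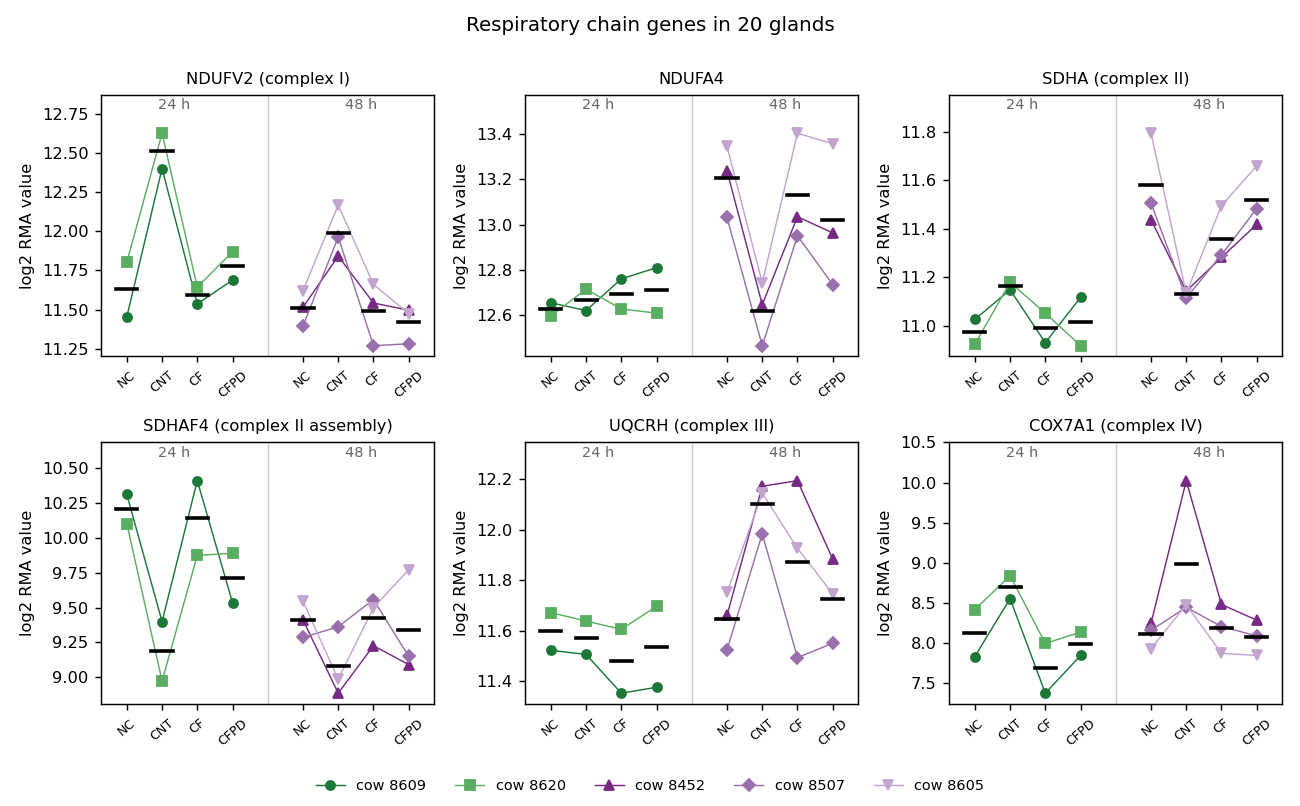
Log2 RMA values of NDUFV2, NDUFA4, SDHA, SDHAF4, UQCRH and COX7A1 in each of the 20 glands, by group and time, with the glands of a cow joined by a line and black bars at the group means (n = 2 at 24 h, n = 3 at 48 h). NDUFV2 is higher in the CNT gland of all 5 cows, and NDUFA4 is lower in CNT of the 3 cows at 48 h.

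NDUFA4 lay the other way at 48 h. It was first counted with complex I and its protein is now placed with complex IV. At 24 h NDUFA4 measured 12.66 and 12.60 in NC and 12.62 and 12.72 in CNT. Its 48 h values were 13.24, 13.03 and 13.35 in NC and 12.65, 12.47 and 12.74 in CNT. The groups overlapped at 24 h and were apart at 48 h, where CNT minus NC was -0.59, -0.57 and -0.60 in cow8452, cow8507 and cow8605. The mean difference of -0.59 (SE 0.19) had an adjusted p of 0.0971, and of 0.0144 with the cow as a block. NDUFA4L2, a paralogue known as a hypoxia gene, measured 7.73 and 7.51 in NC and 7.17 and 7.13 in CNT at 24 h, and 7.81, 7.46 and 7.58 in NC and 6.31, 7.47 and 6.99 in CNT at 48 h. Its difference was -0.47 (SE 0.16, adjusted p = 0.163) and -0.69 (SE 0.27, adjusted p = 0.145), the second resting on cow8452, without which it was -0.29. The CNT values of NDUFA4L2 lay near or below the array medians of 7.12 to 7.31.

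The other complex I probe sets lay between -0.22 and 0.49 at 24 h and between -0.23 and 0.45 at 48 h, and none passed. NDUFB5, a membrane arm subunit, had a difference of 0.49 (SE 0.24, adjusted p = 0.311) at 24 h and of 0.02 at 48 h. NDUFAB1, the acyl carrier protein, had 0.15 and 0.44 (SE 0.28, adjusted p = 0.365), and NDUFA1, an accessory subunit, -0.04 and -0.05.

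In complex II the calls with a block were the catalytic subunit and its assembly factor. SDHA, the flavoprotein that oxidises succinate, measured 11.03 and 10.93 in NC and 11.15 and 11.18 in CNT at 24 h. Later, at 48 h, it measured 11.44, 11.51 and 11.79 in NC and 11.14, 11.12 and 11.13 in CNT. The CNT glands were the higher ones at 24 h and the lower ones at 48 h, without overlap at either time. The difference was 0.19 (SE 0.15, adjusted p = 0.526) at 24 h and -0.45 (SE 0.14, adjusted p = 0.0926, 0.0321 with the cow as a block) at 48 h. SDHB had -0.22 and 0.22, SDHC, a membrane anchor, 0.19 and 0.15, and SDHD, the other anchor, 0.20 and 0.20, all with adjusted p of 0.429 or more. SDHAF2, which helps attach the flavin to SDHA, had 0.23 and 0.38 (SE 0.16, adjusted p = 0.178).

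SDHAF4, which guards the flavinated SDHA during assembly, measured 10.31 and 10.10 in NC and 9.40 and 8.97 in CNT at 24 h. At 48 h the values were 9.41, 9.29 and 9.54 in NC and 8.89, 9.36 and 8.99 in CNT. The groups were apart at 24 h and overlapped at 48 h, where cow8507 had the higher value in CNT. The difference was -1.02 (SE 0.25, adjusted p = 0.0811, 0.0263 with the block) at 24 h and -0.34 (SE 0.21, adjusted p = 0.338) at 48 h. Over both times it fell by 0.68 (SE 0.17, adjusted p = 0.0155), a call that was lost without cow8452, cow8609 or cow8620.

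Whether the response to challenge differed between the time points was tested as the 48 h minus the 24 h difference. No member passed, with the lowest adjusted p at 0.445 without the block and 0.111 with it, and at an unadjusted p under 0.05 there were 2 members without the block. These were SDHA, with -0.64 (SE 0.20), and NDUFA4, with -0.63 (SE 0.26). Of all 13486 probe sets 0% passed without the block in either direction, and 0.141% higher and 0.0593% lower with it. Members that pointed one way in both cows at 24 h and the other way in all 3 cows at 48 h numbered 5 of 95, namely SDHA, SDHB, UQCRH, ATP5MC2 and ATP5MG, against 7.29% of all probe sets.

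In complex III the hinge protein of cytochrome c1, UQCRH, measured 11.52 and 11.67 in NC and 11.51 and 11.64 in CNT at 24 h. In the 48 h cows it measured 11.66, 11.52 and 11.75 in NC and 12.17, 11.98 and 12.14 in CNT, with all 3 CNT glands above NC. The difference of 0.46 (SE 0.18) had an adjusted p of 0.157, and of 0.0472 with the cow as a block. UQCRFS1, the Rieske iron-sulphur protein, had 0.19 and 0.10, and UQCR10, a small subunit, 0.05 and 0.19. UQCRC2, a core subunit, had 0.31 and -0.21 by its 2 tested probe sets at 48 h. UQCR11 had 0.45 and 0.30 and UQCRQ 0.27 and 0.39, none below an adjusted p of 0.167.

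Among the complex IV genes with COX names, the probe sets called with a block belonged to isoforms known from striated muscle, COX7A1 and COX8B. NDUFA4, whose protein is placed with complex IV, was also called with a block at 48 h and is counted here under complex I by its symbol. COX7A1 measured 7.83 and 8.41 in NC and 8.55 and 8.84 in CNT at 24 h. Values in the 48 h cows were 8.25, 8.16 and 7.93 in NC and 10.02, 8.44 and 8.47 in CNT. All CNT glands were above all NC glands at both times, with cow8452 far above the others at 48 h. The difference was 0.57 (SE 0.29, adjusted p = 0.307, 0.0427 with the cow as a block) and 0.87 (SE 0.36, adjusted p = 0.164, 0.0476 with the block), and without cow8452 the latter was 0.42 (adjusted p = 0.418). Of 10 striated muscle marker genes, 7 lay below the array median on every array by all their probe sets, and the mean over the 10 genes, by the brightest probe set of each, was 6.08 to 6.57 in the CNT glands and 6.18 to 6.41 in the NC glands. The other 3 were CKM, MYH1 and MYH7. CKM, the muscle creatine kinase, measured 7.24 to 8.66 in NC and 9.73 to 11.27 in CNT by its tested probe set. The difference was 2.26 (SE 0.69, adjusted p = 0.129, 0.0152 with the block) at 24 h and 2.08 (SE 0.58, adjusted p = 0.0652, 0.016 with the block) at 48 h. Its other probe set, below the array medians and not tested, did not rise, with 5.78 to 5.99 in NC and 5.35 to 5.88 in CNT. MYH7, a slow muscle myosin, had -0.06 and 0.13. MYH1, a fast muscle myosin, was tested at 48 h by 1 probe set, which measured 7.21, 9.89 and 4.71 in NC and 4.28, 4.98 and 4.66 in CNT, a difference of -2.63 (SE 1.41, adjusted p = 0.276) that was lower in CNT of every cow. The part of muscle in the COX7A1 difference was not tested.

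COX8B is covered by 2 tested probe sets that disagreed, told apart here by the ends of their names. The _a_at probe set had 10.62, 10.84 and 10.78 in NC and 11.14, 11.39 and 11.39 in CNT at 48 h, a difference of 0.56 (SE 0.15, adjusted p = 0.0539, 0.0268 with the cow as a block). The _at probe set had 7.82, 7.53 and 7.92 in NC and 6.53, 7.26 and 7.20 in CNT, a difference of -0.76 (SE 0.23, adjusted p = 0.0833, 0.0343 with the cow as a block). These CNT values lay near or below the array medians of 7.12 to 7.31. The direction of COX8B is therefore uncertain. Among 11 genes with several tested probe sets at 48 h, 4 held opposite signs (COX8B, NDUFA5, NDUFS1 and UQCRC2), and at 24 h it was 4 of 10 (ATP5F1B, COX8B, NDUFA5 and UQCRC2).

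Among the widely expressed complex IV genes, COX4I1 had 0.00 (SE 0.19) at 24 h and 0.31 (SE 0.13, adjusted p = 0.165) at 48 h, COX6A1 -0.01 and -0.14, COX6C 0.06 and 0.04, and COX8A 0.07 and -0.06. COX7A2, the counterpart of COX7A1 outside muscle, had 0.43 (SE 0.20, adjusted p = 0.28) and 0.10, and COX7A2L, which takes part in joining complexes into supercomplexes, 0.25 and 0.48 (SE 0.19, adjusted p = 0.156).

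In complex V, ATP5F1A had 0.19 and 0.17 and ATP5MG, a membrane subunit, -0.02 and 0.08. ATP5MC3, which encodes the proton-carrying ring subunit, had 0.46 (SE 0.15, adjusted p = 0.151) at 24 h and 0.26 at 48 h. ATP5F1D, in the central stalk, had 0.27 and 0.57 (SE 0.26, adjusted p = 0.2), and ATP5ME -0.21 and 0.04. ATP5F1B, the catalytic beta subunit, had -0.15 and 0.16 by its _a_at probe set. Its _at probe set had 0.59 (SE 0.46, adjusted p = 0.513) at 24 h, from -0.22 in cow8609 and 1.40 in cow8620, and 0.15 at 48 h. ATP5IF1, the inhibitor, had 0.29 and 0.45 (SE 0.21, adjusted p = 0.216), with 1.08 in cow8452 and 0.05 in cow8605.

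The second comparison asked how treated glands stood against CNT. It shares the CNT glands with the first. No member passed in CF or CFPD against CNT at either time, where 2.49% (CF) and 1.48% (CFPD) of all probe sets passed at 24 h and 2.24% and 1.46% at 48 h. At an unadjusted p under 0.05 there were 8 members in each at 24 h, where all probe sets gave 21.4% (CF) and 18.5% (CFPD), and 7 (CF) and 8 (CFPD) at 48 h, where all gave 20.9% and 18.7%. The median difference of the members was -0.11 for CF and -0.14 for CFPD at 24 h, and -0.08 and -0.17 at 48 h, and over all probe sets it was -0.02, -0.01, -0.14 and -0.13 in the same order.

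Blocking on the cow, 4 members passed in CF against CNT at 24 h (background 15.5%) and 2 at 48 h (background 10.3%), and in CFPD 2 at 24 h (background 11.8%) and 1 at 48 h (background 7.94%). NDUFV2 was in all of these counts. It measured 11.54 and 11.64 in CF and 11.69 and 11.87 in CFPD at 24 h, and 11.54, 11.27 and 11.66 in CF and 11.50, 11.28 and 11.47 in CFPD at 48 h, so that every treated gland lay below every CNT gland of its time. CF minus CNT was -0.92 (SE 0.18) at 24 h and -0.50 (SE 0.15) at 48 h, with adjusted p of 0.052 and 0.113, and of 0.00817 and 0.0329 with the block. CFPD minus CNT was -0.74 (SE 0.18) and -0.57 (SE 0.15), with adjusted p of 0.103 and 0.0942, and of 0.0167 and 0.0249 with the block.

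Over both times NDUFV2 fell by 0.71 in CF (adjusted p = 0.00143) and by 0.66 in CFPD (adjusted p = 0.00312) relative to CNT without the block. In these fits 3 members were called higher (SDHAF4, NDUFA4L2 and the _at probe set of COX8B) and 2 lower (NDUFV2 and COX7A1) in CF, where 4.18% and 8.4% of all probe sets were, and 0 and 1 in CFPD, where 2.79% and 6.26% were. With the cow as a block 4 were called higher and 5 lower in CF, against 10.4% and 18.1%, and 3 and 9 in CFPD, against 8.97% and 15.3%. Exchanged labels without the block gave 1 higher and 1 lower in CF, against 3.92% and 8.05%, and 1 and 2 in CFPD, against 3.17% and 7.06%. In CF these were COX8B (higher) and NDUFV2, and in CFPD SDHAF4 (higher), COX7A1 and NDUFV2. SDHAF4 and COX7A1 thus moved from the calls of CF to those of CFPD. NDUFV2 passed in CF without any one of the 5 cows, at adjusted p between 0.00589 and 0.0499. In CFPD it did not pass without cow8620 (adjusted p = 0.0876), and was between 0.0114 and 0.0363 without any other cow.

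COX7A1 measured 7.37 and 7.99 in CF and 7.84 and 8.13 in CFPD at 24 h, all below both CNT glands. Its difference from CNT was -1.01 (SE 0.29) in CF and -0.71 (SE 0.29) in CFPD, with adjusted p of 0.111 and 0.251, and of 0.00871 and 0.0276 with the block. SDHAF4 measured 10.41 and 9.87 in CF at 24 h, 0.95 (SE 0.25, adjusted p = 0.0959, 0.0322 with the block) above CNT, and 9.54 and 9.89 in CFPD, 0.53 above CNT (adjusted p = 0.326). The 10.41 and 9.54 came from cow8609, whose labels are in doubt, and with them exchanged CFPD would be the higher group. NDUFA4L2 measured 7.80 and 7.61 in CF, 0.55 (SE 0.16, adjusted p = 0.118, 0.0447 with the block) above CNT. NDUFA4 at 48 h measured 13.04, 12.95 and 13.40 in CF and 12.96, 12.74 and 13.36 in CFPD. CF lay above every CNT gland, by 0.51 (SE 0.19, adjusted p = 0.169, 0.0301 with the block). In CFPD the 12.74 of cow8507 overlapped with CNT, and the difference was 0.40 (adjusted p = 0.284, 0.0715 with the block). SDHA at 48 h measured 11.28, 11.29 and 11.50 in CF and 11.42, 11.48 and 11.66 in CFPD, all above CNT, with differences of 0.23 (adjusted p = 0.382) and 0.39 (adjusted p = 0.186).

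The third comparison set the treated glands against NC and against each other. No member and no other probe set passed in CF or CFPD against NC or in CFPD against CF at either time, with the block or without it (background 0%), and no member had an unadjusted p under 0.05. In CFPD against CF 0.515% of all probe sets had one at 24 h and 0.162% at 48 h. Of all probe sets, 0.815% (CF) and 1.98% (CFPD) had an unadjusted p under 0.05 against NC at 24 h, and 0.631% and 0.331% at 48 h. Members of CF minus NC lay between -0.44 and 0.21 at 24 h and between -0.22 and 0.53 at 48 h. Those of CFPD minus NC lay between -0.49 and 0.30 and between -0.22 and 0.24. The -0.49 was SDHAF4 at 24 h (SE 0.25), both CFPD glands lying below both NC glands. It came from -0.775 in cow8609, whose labels are in doubt, and -0.21 in cow8620. The gland of cow8609 labelled CF lay 0.098 above its NC gland, so neither the -0.49 nor the separation would remain with the labels exchanged. NDUFV2 differed from NC by -0.04 (SE 0.18) in CF and 0.15 (SE 0.18) in CFPD at 24 h and by -0.02 (SE 0.15) and -0.09 (SE 0.15) at 48 h, with overlapping groups.

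CF and CFPD differ by the prednisolone that CFPD adds. In the fit without the block, the 95% interval of CFPD minus CF had a median half-width of 0.42 at both times. It lay within 1 log2 unit of 0 for 92 of 95 members at 24 h and 95 of 97 at 48 h. It lay within 0.5 for 56 and 44. With the cow as a block the median half-width was 0.34 at both times, and 94 and 96 intervals lay within 1 and 76 and 66 within 0.5. No member's interval left out 0 in either fit. All intervals are for the labels as deposited. Without the block, the NDUFV2 difference was 0.19 (interval -0.24 to 0.62) at 24 h and -0.07 (-0.41 to 0.26) at 48 h. For NDUFA4 it was 0.02 (-0.34 to 0.37) and -0.11 (-0.53 to 0.31). At 48 h, 79 of 97 members were lower in CFPD than in CF, against 45.8% of all probe sets, with a median difference of -0.07, and 30 were lower in every cow, against 8.72%. Exchanging the labels of cow8452 gave 52 of 97, against 44.2%, with a median of 0.00, and 9 lower in every cow, against 9.9%. At 24 h 53 of 95 were lower, against 47%, and 22 in every cow, against 21.7%. With the labels of cow8609 exchanged it was 53 of 95, against 50.1%, and 34 in every cow, against 25.9%.

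**Figure D4:**
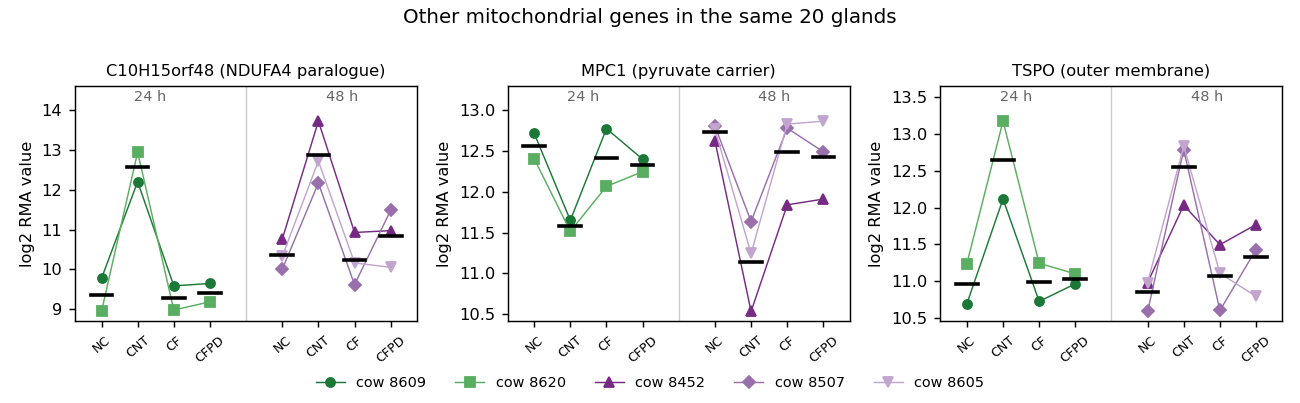
Log2 RMA values of C10H15orf48, MPC1 and TSPO in each of the 20 glands, by group and time, with the glands of a cow joined by a line and black bars at the group means. C10H15orf48 and TSPO are higher and MPC1 lower in the CNT gland of all 5 cows.

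Outside the named families, the mitochondrial genes C10H15orf48, TSPO and SOD2 rose in CNT against NC. C10H15orf48, the bovine counterpart of human C15orf48 and a paralogue of NDUFA4, measured 9.78 and 8.95 in NC and 12.20 and 12.94 in CNT at 24 h. In the cows sampled at 48 h it measured 10.76, 10.005 and 10.33 in NC and 13.72, 12.16 and 12.72 in CNT. It rose by 3.21 (SE 0.38, adjusted p = 0.0173) at 24 h and by 2.50 (SE 0.46, adjusted p = 0.0154) at 48 h. In CF glands it measured 8.98 to 10.93, with CF minus CNT at -3.28 (adjusted p = 0.0152) and -2.63 (adjusted p = 0.0141). In CFPD glands it measured 9.19 to 11.48, highest in cow8507, with CFPD minus CNT at -3.15 (adjusted p = 0.0231) and -2.03 (adjusted p = 0.0569, 0.0123 with the block). TSPO, an outer membrane protein of phagocytes and steroid-making cells, rose by 1.70 (SE 0.31, adjusted p = 0.0142) at 48 h and had 1.68 (adjusted p = 0.0671, 0.00606 with the cow as a block) at 24 h. SOD2, the superoxide dismutase of the mitochondrial matrix, rose by 1.02 (SE 0.18, adjusted p = 0.0391) at 24 h and had 1.58 (adjusted p = 0.0864, 0.022 with the block) at 48 h. HIF1A, the hypoxia-inducible factor, had 0.59 (adjusted p = 0.0871) and 0.53 (adjusted p = 0.107), 0.0224 and 0.0332 with the block, and UCP2, a carrier of the inner membrane, 0.15 and 0.11. EGLN3, a prolyl hydroxylase that acts on HIF1A, had 0.50 (adjusted p = 0.569) at 24 h. The 3 probe sets of IDH1, a dehydrogenase of isocitrate, had 0.06 to 0.19 at 24 h and -0.67 to 0.14 at 48 h. Among the genes linked to inflammation, 2 of 9 tested probe sets were called higher at 24 h and 2 of 8 at 48 h, none lower. Of all probe sets, 2.81% and 4.4% were called in either direction.

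In pyruvate entry, 2 of 13 probe sets were called lower at 48 h, none at 24 h and none higher. Of all probe sets, 2.81% at 24 h and 4.4% at 48 h were called in either direction. The list's median was -0.19 at 24 h and -0.16 at 48 h, against -0.01 and 0.13 over all probe sets. MPC1, a subunit of the pyruvate carrier, fell by 1.60 (SE 0.34, adjusted p = 0.0274) at 48 h, where it was 12.63, 12.81 and 12.77 in NC and 10.53, 11.64 and 11.24 in CNT. It had -0.98 (adjusted p = 0.0895, 0.0146 with the block) at 24 h. MPC2, its partner, had -0.51 (adjusted p = 0.145) and -1.12 (adjusted p = 0.0544, 0.00671 with the block). PC, pyruvate carboxylase, fell by 1.09 (SE 0.19, adjusted p = 0.0121) at 48 h. PDHA1, of pyruvate dehydrogenase, had 0.07 and -0.16. With the cow as a block 2 were called higher and 1 lower at 24 h (background 15.4%), and 4 lower at 48 h (background 15.8%).

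Of 21 glycolysis probe sets, PGK1 was called higher and SLC16A1, a lactate and pyruvate carrier, lower at 24 h (background 2.81%), and 5 were called higher at 48 h (background 4.4%). Those were GAPDH (0.86), TPI1 (0.92), ENO1 (0.79), SLC16A3 (1.68), a lactate exporter, and LDHA (2.14) by 1 of its 3 tested probe sets, the others having 0.40 and 0.08. The median over the glycolysis probe sets was 0.35 at 24 h and 0.54 at 48 h. Of 13 Krebs cycle probe sets none was called at either time. With the cow as a block 3 were called at 24 h (background 15.4%) and 1 at 48 h (background 15.8%), all higher. The median over the Krebs cycle probe sets was 0.27 and 0.21.

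No electron carrier outside the named families, no carrier of ADP, ATP or phosphate and no regulator of respiratory genes was called in CNT against NC, with 11, 13 and 14 probe sets tested. Of all probe sets, 2.81% at 24 h and 4.4% at 48 h were called in either direction, the share for each unblocked count of this paragraph. Blocking on the cow gave 1, 3 and 0 calls at 24 h (background 15.4%) and 0, 1 and 2 at 48 h (background 15.8%). PPARGC1A, a coactivator that drives mitochondrial gene expression, had -1.29 and -1.22 by its 2 tested probe sets at 48 h (adjusted p = 0.189 and 0.12, 0.00421 and 0.00534 with the cow as a block). Of 17 probe sets for further assembly factors, COX15, which makes the haem A of complex IV, rose by 1.29 (SE 0.22, adjusted p = 0.0121) at 48 h. Of 12 for fatty acid oxidation at 48 h, ACADVL, an acyl-CoA dehydrogenase of the inner membrane, rose by 0.61 (SE 0.14, adjusted p = 0.0357). In the mitochondrial ribosome, 2 of 80 probe sets were called higher at 24 h and none at 48 h, with medians of 0.11 and 0.21. In the cytosolic ribosome it was none of 90 and 2 of 89, with medians of 0.08 and 0.16, and in the proteasome 3 and 1 of 37, with medians of 0.36 and 0.33.

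Cell type marker transcripts also differed between CNT and NC. The neutrophil list held 14 probe sets, of which 9 were tested. Of these 9, 7 were called higher in CNT at 24 h and 8 at 48 h, with a median of 4.39 and 2.61. Of all probe sets, 2.81% and 4.4% were called in either direction. The filter also admits a probe set that exceeds the array median in CNT glands alone. CXCR1 at 24 h measured 5.005 and 5.58 in NC, 5.30 to 5.72 in treated glands and 9.72 and 12.56 in CNT. The counts and medians of this list were thus partly set by the filter. Of 16 probe sets for secretory epithelium, 4 and 2 were called lower. Of macrophage markers none of 10 and 3 of 11 were called higher, and of 7 and 9 T cell probe sets none. Of general epithelium 1 of 9 was called lower at 24 h and none at 48 h, and of myoepithelial and smooth muscle 1 of 11 and none. The striated muscle, adipocyte and endothelial lists had no call without the block. In the treated glands the secretory mean was 14.44 to 14.84. The part of these cells in the differences above was not tested.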

How the data were processed

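RNA of each gland was hybridised to 1 Affymetrix GeneChip Bovine Genome Array. The authors deposited log2 values per probe set, made from the scans by RMA in the affy package (versions not given in the sources used here). Of 24128 probe sets, 112 controls were left out, and 13318 carry 1 gene symbol. Probe sets above the array median on at least 2 arrays (24 h, 13004 kept) or 3 arrays (48 h, 13000 kept) were tested with limma 3.58.1 in R 4.3.3, with 4 groups per time point and Benjamini-Hochberg adjustment over all of them. The code was tested on simulated data. Glands are paired by animal: deviations from the group means correlated within cows at 0.521 (24 h) and 0.448 (48 h) on average, the lowest pair at 0.0624. The number of arrays limits the precision.

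Members and lists were chosen with earlier results of these data known. Genes were named where, per complex, they had 1 of the 2 highest means or the 2 largest differences of a time point, where they were called, where their probe sets differed by over 0.5, or where they stood on a fixed list (SDHA to SDHD, NDUFA4, NDUFA4L2, NDUFAB1, UQCRFS1, COX isoforms, ATP5F1A, ATP5F1B, ATP5ME, ATP5IF1). Of other lists, up to 4 called genes and the measured genes linked to inflammation were named. ATP5MC2, NDUFA5, NDUFS1, CKM, MYH1, MYH7, MPC2, PDHA1 and PPARGC1A were named after their values were seen. Alternatives were another scaling, filter, prior and block, leaving out glands or cows, and CF and CFPD labels exchanged in cow8609 and cow8452. The exchange and the mean over both times were added after seeing the data.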

Additional observations from a re-analysis of the deposited data

How the results depend on the processing

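In CNT against NC, 0 members were called at either time, where 2.81% of all probe sets passed at 24 h and 4.4% at 48 h. Once the cow entered as a fixed block there were 3 at 24 h (background 15.4%) and 7 at 48 h (background 15.8%). With the cow as a random block there were 2 and 6. All 20 arrays in 1 fit gave 2 and 3, 1 probe set per gene 1 and 1, a trended and robust prior 1 at 24 h and quantile normalization 2 at 48 h. Exchanging the labels gave 1 at 48 h, and 2 and 6 with the block. For a single time point the share of all probe sets called is given only for the main fit and the fixed block. Counts under the other alternatives cannot be set against such a share. In CF against CNT the fixed block gave 4 at 24 h (background 15.5%) and 2 at 48 h (background 10.3%). The random block gave 4 and 2, and exchanged labels with the block 2 and 4. All arrays together, the trended prior and 1 probe set per gene gave 1 each at 24 h. In CFPD against CNT the fixed block gave 2 at 24 h (background 11.8%) and 1 at 48 h (background 7.94%). The random block gave 1 and 1, and exchanged labels with the block 4 and 1. All arrays together gave 1 at 24 h. Leaving out single glands or cows gave 0 to 1 at 24 h in CNT against NC and in CF against CNT, the 1 arising without the CNT gland of cow8609. Shares of all probe sets were not counted for CNT against NC in the mean of both times without single cows. In that mean, 4 members became 11 with the block. Without single cows this was 1 to 5 unblocked, and with the block 6 (without cow8452), 8 (cow8507), 19 (cow8605) and 2 (cow8609 or cow8620). No member was called in treated glands against NC, in CFPD against CF or in the time difference in any alternative run. Relative to CNT in the mean of both times, CF gave 5 members, 9 with the block, 2 with exchanged labels and 11 with both, and CFPD gave 1, 12, 3 and 10. With both, 3 members were higher and 8 lower in CF, against 10.7% and 18% of all probe sets. In CFPD it was 3 and 7, against 9.34% and 15.9%. The shares of the other fits stand beside their counts in the results. Leaving out cow8452, cow8507 or cow8605 gave 2, 1 and 1 higher in CF (background 3.2%, 2.36% and 2.91%). Lower in CF were 2, 1 and 3 (background 8.51%, 3.93% and 8.81%). In CFPD 0, 1 and 0 were higher (background 1.82%, 3.2% and 1.27%). Lower in CFPD were 1, 1 and 4 (background 5.31%, 4.76% and 5.02%). Of the alternative values of genes named for CNT against NC, 1514 kept direction and side of the threshold, 66 passed newly, 41 no longer passed and 72 changed sign. None of these 72 was called before or after the change. The log2 differences that changed sign under quantile normalization became, at 24 h, NDUFA4 -0.024, UQCR10 -0.042, COX6C -0.024, COX8B _a_at -0.018 and UQCRC2 -0.018, and at 48 h NDUFB5 -0.16, SDHC -0.040, COX6C -0.11, COX7A2 -0.087, ATP5MG -0.096, UQCRFS1 -0.088, ATP5F1B _a_at -0.019 and ATP5ME -0.14. With arrays centred on their medians, those at 48 h became NDUFB5 -0.047, COX6C -0.027 and ATP5ME -0.021. Leaving out single glands or cows turned signs as well, with ranges at 24 h of NDUFA1 -0.13 to 0.064, NDUFA4 -0.034 to 0.12, UQCR10 -0.088 to 0.18, UQCRH -0.100 to 0.050, COX6A1 -0.032 to 0.019, ATP5MG -0.085 to 0.044, ATP5F1B _at -0.22 to 1.40, COX4I1 -0.15 to 0.14, COX8A -0.0015 to 0.15, COX8B _a_at -0.19 to 0.34, ATP5F1B _a_at -0.30 to 0.0027, ATP5ME -0.53 to 0.10, UQCRC2 -0.081 to 0.14 and UCP2 -0.046 to 0.34. At 48 h the ranges were NDUFA1 -0.18 to 0.093, NDUFB5 -0.18 to 0.20, COX6C -0.16 to 0.18, COX7A2 -0.040 to 0.31, ATP5F1B _at -0.33 to 0.61, COX8A -0.12 to 0.019, UQCRFS1 -0.020 to 0.19, ATP5F1B _a_at -0.030 to 0.40, ATP5ME -0.091 to 0.17 and UCP2 -0.10 to 0.32. The cause of these moves was not tested. Signal over background limits the 18 probe sets that were tested at neither time.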
